A study of Mus musculus with 4 samples.

Results

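The heat shock and cytosolic chaperone genes described here are 31 genes, found in the deposited count table by matching its Ensembl mouse gene identifiers to a list of symbols, out of 53379 identifiers in all. All 31 had enough counts to be tested, among 18422 genes tested. The RNA came from tumour-associated macrophages of C57BL/6J mice carrying tumours of the MC38 model, a mouse colon carcinoma line, and the cells had been sorted as positive for CD45, CD11b and F4/80 at 21 days after implantation. One group of 2 mice was fed a high-fat diet (HFD) and the other group of 2 mice a control diet (CD), so there were 4 libraries, each named for 1 mouse. Every mouse, control or not, carried the tumour, and no tumour-free or unsorted sample was compared here. The sources used here do not give the composition or length of the diets or the age of the mice. The comparison asks whether transcripts that encode the protein folding machinery differ in tumour macrophages with the diet of the host.

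Chaperones bind proteins that are unfolded or partly folded and keep them from aggregating while they reach their final shape. HSP70 proteins bind short exposed stretches with the help of J proteins, which bring the client and speed up ATP hydrolysis, and of exchange factors, which release it. Clients that need more help pass to HSP90, often by way of linker co-chaperones, or into the chamber of the chaperonin TRiC. When unfolded protein builds up, as it does in heat, with toxic agents or when cells are handled roughly, the transcription factor HSF1 is set free, forms trimers and drives genes that carry heat shock elements, arrays of the short unit GAA in alternating orientation. In macrophages the inducible members can be raised by fever, by phagocytosis and by tissue dissociation.

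The genes are not all heat-inducible or cytosolic. Hspa9, Hspd1 and Hspe1 encode chaperones of the mitochondrial matrix, and Hsf1 and Hsf2 encode transcription factors. TRiC has 8 kinds of subunit, and the list holds 7 of them, without Cct6a. Of the 13 macrophage markers examined, including the sort markers Ptprc, Itgam and Adgre1, 13 were tested and none was at 0 in any library. Their summed level was 14700 and 15400 CPM (counts per 1000000 counts of the library's total, scaled by the TMM method) in HFD mice 1 and 2, and 10400 and 14500 CPM in CD mice 1 and 2.

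Sequence windows around gene starts were searched for exact matches to a heat shock element close to the start. RefSeq windows on GRCm38.p6, from 250 bases before to 50 bases after a start, were at hand for 24 of the 31 genes. The motif GAANNTTCNNGAA, 3 units in alternating orientation, was searched on both strands together with its reverse complement TTCNNGAANNTTC. It was present in 5 of the 24 genes (20.8%), against 179 of 27025 genes (0.662%) in all RefSeq windows of the same length. The shorter form with 2 units, GAANNTTC or TTCNNGAA, lies inside the longer one and was present in 14 of the 24 (58.3%), against 17.0% of all genes. A match is a description of the letters in a window, and no binding was measured here. Arrays with a mismatched unit were not searched, so a gene without a match is not shown to lack an element. The 4 places below are where the long motif stands in these 5 genes, with the motif, or the merged overlapping matches, in capitals and each sequence written 5′ to 3′ on the strand of the gene. Chordc1 lies on the plus strand at chr9:18292260-18292288 and Dnajb6 on the plus strand at chr5:29735844-29735872. Hspd1, on the minus strand, and Hspe1, on the plus strand, are transcribed away from each other and share 1 element at chr1:55088053-55088082, so that their lines are reverse complements. Hsph1 lies on the minus strand at chr5:149636280-149636308, within the first bases of its transcript.
Chordc1: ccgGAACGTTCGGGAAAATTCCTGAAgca
Dnajb6: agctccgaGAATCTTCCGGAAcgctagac
Hspd1: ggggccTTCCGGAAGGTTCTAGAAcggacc
Hspe1: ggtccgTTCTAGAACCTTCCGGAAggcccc
Hsph1: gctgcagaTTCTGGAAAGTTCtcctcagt

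Hspa1a and Hspa1b, the inducible HSP70 genes, are shown with their 250 bases upstream of the start because they had the largest differences between mice of all the abundant members. The windows, both on the minus strand of chromosome 17 in GRCm38.p6, are chr17:34972157-34972406 for Hspa1a and chr17:34959239-34959488 for Hspa1b. They are identical at 247 of 250 positions, and the capitals mark the 2-unit motif, which stands at the same place in both.
Hspa1a: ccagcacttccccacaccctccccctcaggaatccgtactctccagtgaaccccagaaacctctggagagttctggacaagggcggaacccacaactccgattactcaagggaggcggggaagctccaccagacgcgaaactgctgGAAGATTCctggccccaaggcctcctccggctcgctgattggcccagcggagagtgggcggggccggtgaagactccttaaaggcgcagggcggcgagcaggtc
Hspa1b: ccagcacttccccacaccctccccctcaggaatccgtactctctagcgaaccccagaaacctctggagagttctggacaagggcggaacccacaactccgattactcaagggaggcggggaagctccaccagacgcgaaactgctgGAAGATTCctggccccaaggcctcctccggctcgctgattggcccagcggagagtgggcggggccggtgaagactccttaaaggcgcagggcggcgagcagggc

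None of the 31 chaperone genes was called higher or lower in the HFD libraries by edgeR's quasi-likelihood test at a Benjamini-Hochberg adjusted p below 0.05, taken over all genes tested. Over all 18422 genes, 2.61% were called higher and 7.91% lower, 10.5% in either direction. At an unadjusted p below 0.05 there were 6 members (Hspa4l, Dnaja1, Dnajb1, Bag3, St13 and Hsf1), where 31.3% of all genes passed that level. DESeq2 called 2 members, Dnaja1 and Bag3, as lower (adjusted p = 0.0366 and 0.0455), where it called 14.4% of the genes it gave an adjusted p. Without a filter on low counts edgeR called 4 members, 1 higher (Hspa4l) and 3 lower (Bag3, Dnaja1 and Hsf1), beside 12.6% of all genes.

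The log2 fold changes, HFD minus CD, were positive in 15 members and negative in 16, with a median of -0.03, beside 0.005 over all genes tested. With libraries scaled by total counts alone both medians were positive, 0.046 and 0.074. Both HFD libraries lay above both CD libraries in 11 members, where 32.2% of all genes did so, and below them in 12, where 31.6% did so (63.8% either way). In the other 8 the diets overlapped. The members' summed level was 5680 and 6200 CPM in HFD mice 1 and 2 and 6750 and 6850 CPM in CD mice 1 and 2. Since these are bulk libraries, fewer cells of a type and less RNA per cell cannot be told apart in any of these values.

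**Figure D1:**
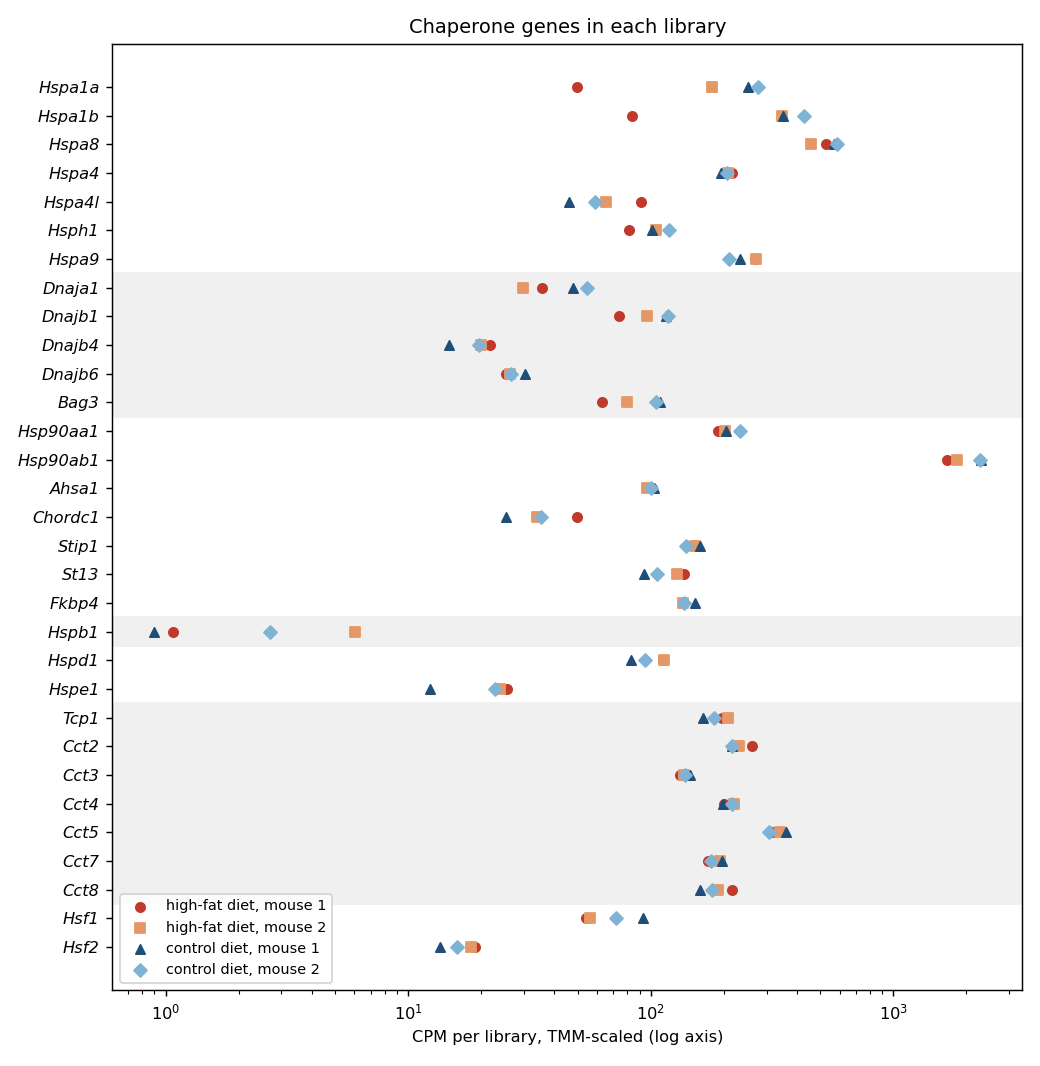
Level of each of the 31 chaperone genes in each of the 4 libraries, as TMM-scaled CPM on a log axis, with 1 marker per mouse and grey and white bands that separate the roles. Hspa1a and Hspa1b of high-fat-diet mouse 1, at 49.5 and 84.0 CPM, stand well to the left of the other 3 libraries, while most other genes have their 4 markers close together.

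Per kilobase of the principal transcript, the most abundant member was Hsp90ab1, with a mean of 694 CPM per kilobase in the HFD and 906 CPM per kilobase in the CD libraries. Hspa8, Cct5 and Cct2 followed it, with mean levels of 205, 177 and 126 CPM per kilobase in the HFD libraries. In the CD libraries Hspa1b, at 139 CPM per kilobase, stood between Cct5 (180) and Cct2 (110), while in the HFD libraries it was at 76.9. Hspb1 was the least abundant, at 3.92 and 1.98 CPM per kilobase in the HFD and CD libraries. These levels hold for the transcript lengths of GENCODE and leave out the counts of near-identical copies.

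Hspa1a and Hspa1b encode the same stress-inducible HSP70 and are the members whose transcripts rise most steeply in textbook heat shock. Hspa1a (ENSMUSG00000091971.3, chromosome 17, 34969190 to 34972156, minus strand, GRCm38) had 49.5 and 178.9 CPM in HFD mice 1 and 2 and 251.2 and 276.1 CPM in CD mice 1 and 2. Hspa1b (ENSMUSG00000090877.3, chromosome 17, 34956436 to 34959238, minus strand) had 84.0 and 347.0 CPM in the HFD mice and 352.3 and 426.5 CPM in the CD mice. In both genes HFD mouse 1 was far below the other 3 libraries, and HFD mouse 2 was just below the lower control in Hspa1b and somewhat further below it in Hspa1a, so that the diets did not overlap. The log2 fold change was -1.21 for Hspa1a (SE 0.54, edgeR adjusted p = 0.183) and -0.85 for Hspa1b (SE 0.59, adjusted p = 0.36).

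Much of the sequence is common to the pair, and the sources used here do not say how reads that match both genes were counted. Their principal transcripts were 99.2% identical over 2201 bases, and 58.8% of the 50-base windows of Hspa1a were also present in Hspa1b. Summed, they had 133.4 and 525.9 CPM in the HFD mice and 603.4 and 702.8 CPM in the CD mice. The sum keeps the order of the single genes, with HFD mouse 1 lowest, and it was not called either (log2 fold change -0.99, SE 0.57, adjusted p = 0.284). The difference between the diets depends on which HFD mouse is taken. Without HFD mouse 2 both genes were called lower, Hspa1a at -2.39 (adjusted p = 0.00991) and Hspa1b at -2.19 (adjusted p = 0.0151), in a fit that takes its spread from the CD pair and called 2.16% of all genes. Without HFD mouse 1, where 1.87% of all genes were called, the values were -0.54 and -0.15 (adjusted p = 0.335 and 0.823).

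The constitutive HSP70 genes had smaller differences. Hspa8, which encodes the abundant HSP70 of the unstressed cytosol, had 526.2 and 456.1 CPM in the HFD and 570.9 and 587.8 CPM in the CD mice (log2 fold change -0.24, SE 0.16, adjusted p = 0.345). Hspa9, the HSP70 of mitochondria, had 269.4 and 271.3 CPM in the HFD and 234.3 and 210.0 CPM in the CD mice (log2 fold change 0.28, adjusted p = 0.241). The HFD mice were the lower pair in Hspa8 and the higher pair in Hspa9, with no overlap in either.

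The HSP110 genes encode large relatives of HSP70 that act mainly as its nucleotide exchange factors. Hspa4l (ENSMUSG00000025757.12, chromosome 3, 40744495 to 40796103) had the smallest p among the HSP70 and HSP110 genes, with 90.9 and 65.4 CPM in the HFD and 45.8 and 58.6 CPM in the CD mice (log2 fold change 0.58, SE 0.21, adjusted p = 0.13). HFD mouse 1 was the highest of the 4 and HFD mouse 2 stood near the higher control. The log2 fold change was 0.77 without CD mouse 2, where Hspa4l was called higher (adjusted p = 0.0399) beside 23.3% of all genes, and 0.34 without HFD mouse 1 (adjusted p = 0.538). Hspa4 differed little (log2 fold change 0.09, adjusted p = 0.714). Hsph1, the HSP110 gene with the 3-unit heat shock element printed above, had 81.0 and 105.4 CPM in the HFD and 101.4 and 119.4 CPM in the CD mice, with overlap between the diets (log2 fold change -0.25, adjusted p = 0.401).

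J proteins hand clients to HSP70, and Bag3, an exchange factor induced by stress, links HSP70 to small heat shock proteins and to selective autophagy. Dnaja1 (ENSMUSG00000028410.13, chromosome 4, 40722150 to 40737149), which encodes a general cytosolic J protein, had the smallest p of all 31 genes. It had 35.6 and 29.8 CPM in the HFD and 47.6 and 54.6 CPM in the CD mice. Both HFD mice were below both controls, by a log2 fold change of -0.64 (SE 0.16), and the unadjusted p of 0.0067 became 0.0558 after adjustment. Fits without 1 library gave -0.76 to -0.50, and without CD mouse 1 the gene was called lower (-0.73, adjusted p = 0.0367), as 13.0% of all genes were called in that fit.

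Bag3 (ENSMUSG00000030847.8, chromosome 7, 128523616 to 128546981) had 62.7 and 79.8 CPM in the HFD and 109.5 and 105.5 CPM in the CD mice (log2 fold change -0.59, SE 0.17, adjusted p = 0.0718). Dnajb1, the inducible J protein gene that partners the inducible HSP70, had 73.9 and 96.5 CPM in the HFD and 115.4 and 117.9 CPM in the CD mice (log2 fold change -0.45, SE 0.17, adjusted p = 0.138). In both genes, as in Hspa1a and Hspa1b, HFD mouse 1 was the lowest library, HFD mouse 2 came next and the controls were close together. The remaining J protein genes differed less, Dnajb4 with a log2 fold change of 0.28 (adjusted p = 0.364) and Dnajb6 with -0.14 (adjusted p = 0.566). Of the 5 genes in this role, 4 had negative values and 0 were called.

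HSP90 completes the folding of kinases and hormone receptors. Hsp90ab1, its constitutive form, had 1671 and 1827 CPM in the HFD and 2299 and 2267 CPM in the CD mice, so that the HFD pair was the lower, beyond the gap within either pair (log2 fold change -0.38, SE 0.16, adjusted p = 0.164). Hsp90aa1, the inducible form, had 189.1 and 202.0 CPM in the HFD and 203.5 and 232.2 CPM in the CD mice, where HFD mouse 2 and CD mouse 1 nearly met (log2 fold change -0.16, SE 0.15, adjusted p = 0.519).

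Among the HSP90 co-chaperones the smallest p belonged to St13 (ENSMUSG00000022403.14, chromosome 15, 81363669 to 81400077), which encodes the HSP70-interacting protein Hip, a stabiliser of the client-bound state of HSP70. It had 136.7 and 128.0 CPM in the HFD and 93.7 and 105.8 CPM in the CD mice, with no overlap (log2 fold change 0.41, SE 0.15, adjusted p = 0.122). Chordc1, which binds HSP90 and carries the longest run of GAA units printed above, had 49.8 and 33.96 CPM in the HFD and 25.3 and 35.3 CPM in the CD mice, and HFD mouse 2 lay between the controls (log2 fold change 0.47, SE 0.25, adjusted p = 0.248). Stip1, the Hop adaptor between HSP70 and HSP90, Ahsa1, the activator of the HSP90 ATPase, and Fkbp4, an immunophilin of steroid receptor complexes, had log2 fold changes of 0.04, -0.04 and -0.09 with adjusted p from 0.71 to 0.889. The values of Stip1 and Ahsa1 change sign under other scalings, filters or without 1 library and are too small to give a direction.

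Hspb1 encodes the small heat shock protein HSP25, the mouse form of HSP27. It had few counts, 40 and 231 in the HFD and 29 and 100 in the CD libraries, or 1.07 and 6.02 CPM against 0.894 and 2.69 CPM. Mouse 2 was the higher in both diets and the diets overlapped. Its difference of 0.98 on the log2 scale (SE 0.84, adjusted p = 0.464) turned to -0.73 without HFD mouse 2, so no direction is given.

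Hspd1 and Hspe1 encode the 2 parts of the mitochondrial folding chamber, HSP60 and its lid HSP10, and start within 1 shared promoter region. Hspd1 (ENSMUSG00000025980.14, chromosome 1, 55077835 to 55088243, minus strand) had 112.5 and 113.3 CPM in the HFD and 82.9 and 94.6 CPM in the CD mice (log2 fold change 0.35, SE 0.14, adjusted p = 0.163). Hspe1 (chromosome 1, 55088132 to 55091307, plus strand) had 25.7 and 23.9 CPM in the HFD and 12.3 and 22.7 CPM in the CD mice (log2 fold change 0.50, SE 0.29, adjusted p = 0.288). The HFD mice were the higher pair in both genes, but CD mouse 2 came close to them in Hspe1. The log2 fold change of Hspe1 was 1.01 without CD mouse 2 and 0.13 without CD mouse 1. The spans of the genes overlap at their starts on opposite strands.

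TRiC folds actin, tubulin and other proteins in a chamber built of related subunits. Its 7 genes in the list had log2 fold changes between -0.08 and 0.26, and none was called. Cct8 (ENSMUSG00000025613.13, chromosome 16, 87483326 to 87495873) had the smallest p, with 216.0 and 188.7 CPM in the HFD and 159.8 and 178.1 CPM in the CD mice (log2 fold change 0.26, SE 0.16, adjusted p = 0.298). Tcp1 and Cct2 followed with 0.22 and 0.19, also with the HFD mice above the controls. Cct3 (-0.08), Cct4 (0.02), Cct5 (-0.03) and Cct7 (-0.04) lay near zero, with adjusted p from 0.729 to 0.955, and the last 3 change sign with the scaling, the filter or the libraries used. The median of the 7 was 0.02, and -0.011 with upper-quartile factors. Summed over the 7 subunits, the level was 1490 and 1520 CPM in the HFD and 1440 and 1420 CPM in the CD mice.

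Neither heat shock factor gene was called. Hsf1 (ENSMUSG00000022556.10, chromosome 15, 76477422 to 76501913, plus strand), the main activator of the stress-inducible chaperones, had 54.1 and 56.0 CPM in the HFD and 93.0 and 71.7 CPM in the CD mice. The HFD mice were nearly equal and both below the controls (log2 fold change -0.58, SE 0.17, adjusted p = 0.08). Without CD mouse 2 the log2 fold change was -0.76, and without CD mouse 1 it was -0.38. HSF1 is controlled chiefly as a protein, and its transcript level does not measure its activity. Dgat1 lies on the opposite strand with its 3′ end just past the 3′ end of Hsf1, and it had 20.8 and 26.6 CPM in the HFD and 118.8 and 64.8 CPM in the CD mice. The sources used here do not give the strand setting of the counting, and the part of reads from Dgat1 in the counts of Hsf1 was not tested. Hsf2, which works with Hsf1 and is active in development, had 18.9 and 18.1 CPM in the HFD and 13.5 and 15.8 CPM in the CD mice (log2 fold change 0.34, SE 0.17, adjusted p = 0.234).

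**Figure D2:**
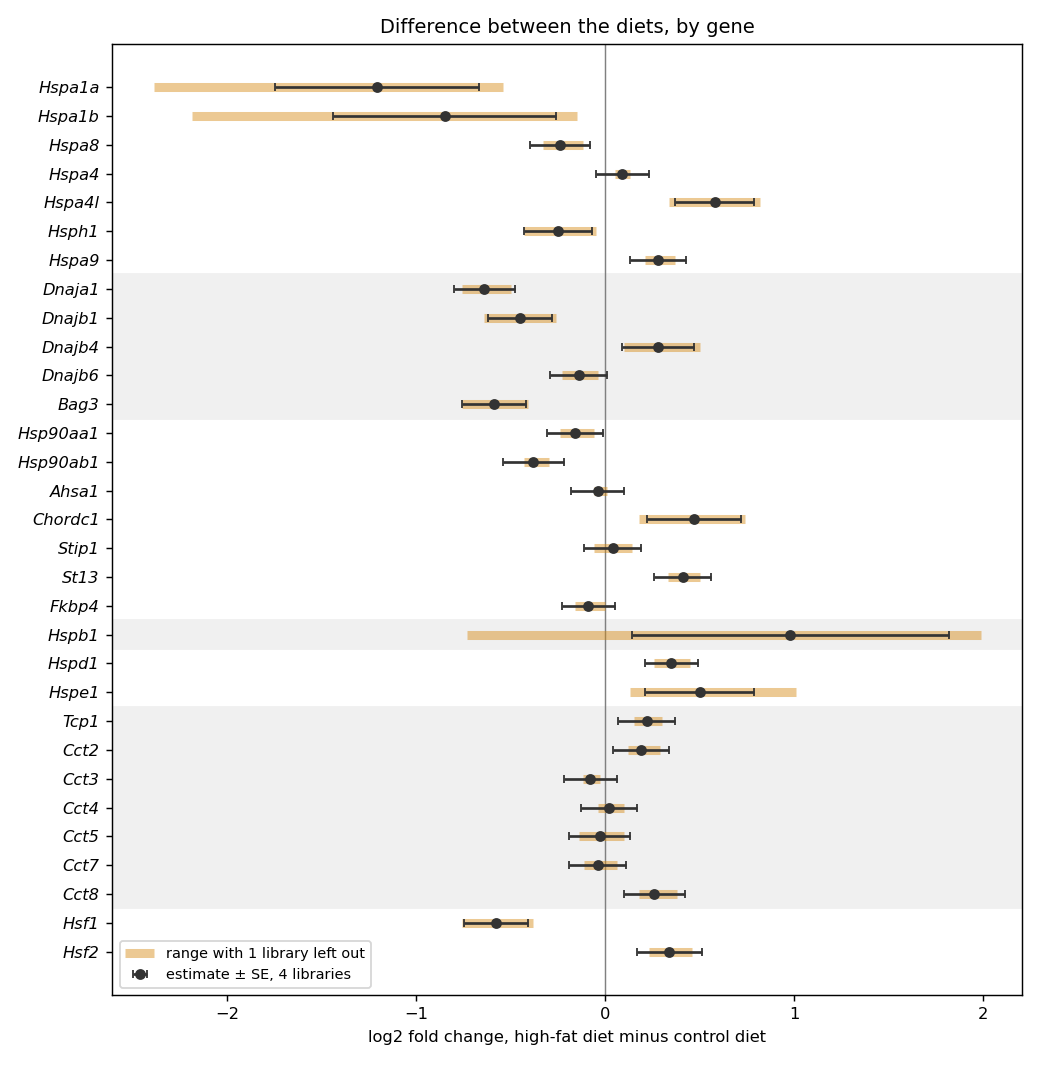
Log2 fold change, high-fat diet minus control diet, of each of the 31 chaperone genes from edgeR, with the standard error as black whiskers and, as a wide band, the range when each of the 4 libraries is left out in turn. The bands of Hspa1a (-2.39 to -0.54), Hspa1b (-2.19 to -0.15) and Hspb1 (-0.73 to 1.99) are far wider than those of the other genes.

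The HFD mice differed from each other more in the inducible HSP70 pair than in nearly any other gene. Over the 10312 genes whose log2 CPM averaged 3 or more, ranked by the size of the log2 ratio of HFD mouse 2 to HFD mouse 1, Hspa1b was at rank 3 (log2 ratio 2.04, 4.13-fold) and Hspa1a at rank 4 (1.84, 3.62-fold). The median size of that ratio over these genes was 0.156. The CD mice differed 1.10-fold in Hspa1a and 1.21-fold in Hspa1b. The genes ahead of the pair were Gm43305 and Adm, which encodes adrenomedullin, and Hmox1, the stress-inducible heme oxygenase, was at rank 7. They are named for their rank, which was examined after values of the pair had been seen. Hspb1, below the abundance limit for the ranking, differed 5.64-fold between the HFD mice and 3.01-fold between the CD mice.

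Apart from Hspb1, the other members with HFD mouse 2 above HFD mouse 1 were less apart. Dnajb1, Hsph1 and Bag3 had log2 ratios of 0.38, 0.38 and 0.34. Hspa4l and Chordc1 went the other way, with -0.47 and -0.55. With 1 library per mouse, a difference between animals and a difference between preparations cannot be told apart.

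**Figure D3:**
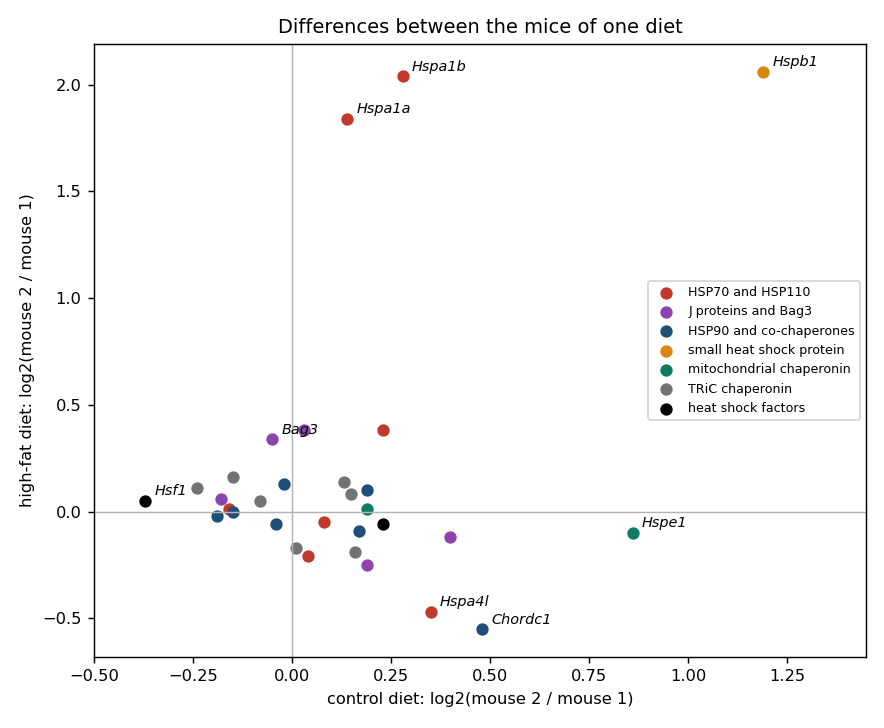
Log2 ratio of mouse 2 to mouse 1 for each of the 31 chaperone genes, in the control diet (horizontal axis) and in the high-fat diet (vertical axis), coloured by role. Hspa1a (1.84) and Hspa1b (2.04) are high on the vertical axis but near zero on the horizontal one, Hspb1 is high on both (2.06 and 1.19), and the other genes lie within 0.55 of zero on the vertical axis.

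Several members have near-identical copies that were counted as genes of their own. Transcripts with at least 95% identity over at least 300 bases were searched in GENCODE, a limit set after the data had been seen in order to leave out repeats. The 3 processed pseudogenes of Dnaja1, mainly Gm15542 and Gm7816, together had a CPM equal to 258 and 264% of that counted for Dnaja1 in the HFD and 225 and 199% in the CD mice. For Hsp90aa1 (copies Gm12346, Gm5844 and Gm5511) this ratio was 147 to 165%, and for Hspd1 (copy Hspd1-ps3) it was 149 to 172%. Dnajb6 had 5 copies with 95.3 to 109%, and Hspa8 had 5, mainly Gm8355, with 26.4 to 28.4%. The sources used here do not say how the counting treated reads that match several places, so levels of these genes are uncertain, and whether reads of the genes were counted at the copies was not tested.

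With the copies added to the gene, Dnaja1 had 127.2 and 108.4 CPM in the HFD and 154.6 and 163.2 CPM in the CD mice, still without overlap. Its log2 fold change was then -0.43 (SE 0.15, adjusted p = 0.117), closer to zero than the -0.64 of the gene alone. The sums for Hsp90aa1 (-0.22), Hspa8 (-0.26), Dnajb6 (-0.10) and Hspd1 (0.31) kept the sign of the single genes, with adjusted p from 0.196 to 0.669. No member was called with its copies added.

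**Figure D4:**
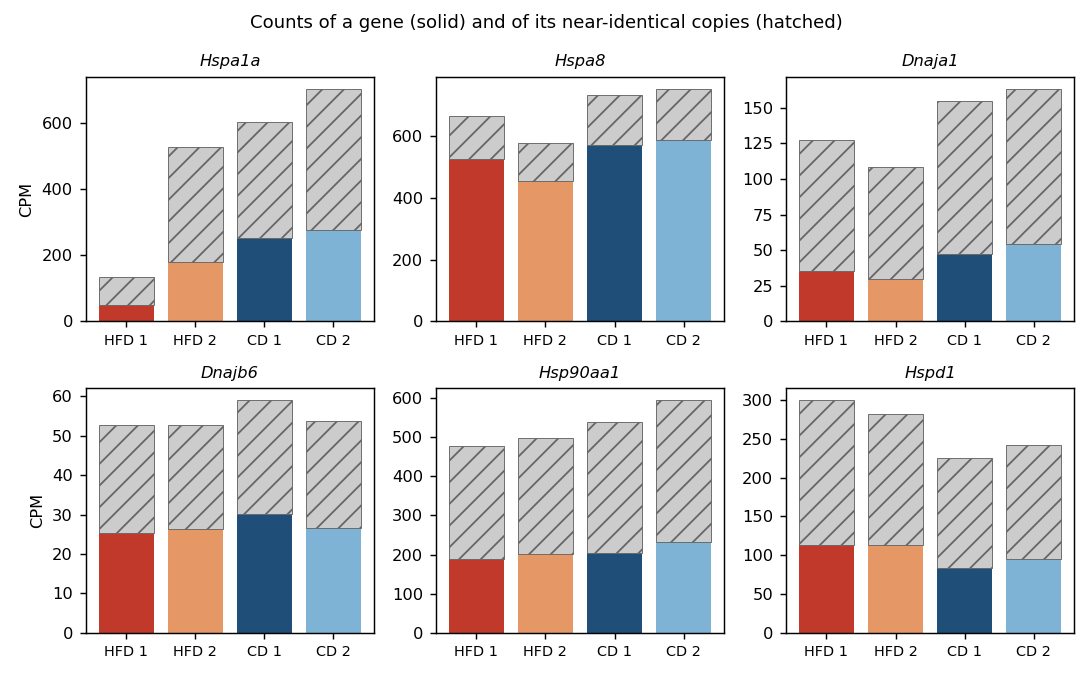
CPM of 6 chaperone genes (solid) and of their near-identical copies (hatched, stacked on top) in each of the 4 libraries, where the copy of Hspa1a is Hspa1b and the other copies are processed pseudogenes. Most of the Dnaja1 bar belongs to copies in every library, and the Hspa1a bar of high-fat-diet mouse 1, at 133.4 CPM with its copy, is the lowest of that panel.

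Further genes of the folding machinery were taken from a list of 79, of which 70 were tested. Only Ppid was called higher and Hspa2 and Unc45a lower, beside 2.61% and 7.91% of all genes, and the median log2 fold change was 0.18. Hspa2, an HSP70 best known from the testis, had 10.6 and 8.52 CPM in the HFD and 68.2 and 49.8 CPM in the CD mice. It fell 6.17-fold (log2 fold change -2.62, SE 0.22, adjusted p = 0.00637) and was also called lower in each of the 4 fits without 1 library. Unc45a, a myosin and HSP90 co-chaperone, had 32.5 and 38.5 CPM in the HFD and 96.4 and 68.5 CPM in the CD mice and fell by 1.22 on the log2 scale (SE 0.21, adjusted p = 0.0262). Ppid, the HSP90-binding cyclophilin 40, had 32.7 and 30.7 CPM in the HFD and 18.5 and 19.9 CPM in the CD mice (log2 fold change 0.72, SE 0.15, adjusted p = 0.0365). All 3 separate the diets with no overlap. Unc45a and Ppid lost the call without HFD mouse 1 (adjusted p = 0.113 and 0.223) and without HFD mouse 2 (0.0645 and 0.142). With the mouse number as a block Ppid was not called, while Hspa2 and Unc45a were.

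The other groups of that list had 0 called genes each. The remaining TRiC and prefoldin genes, 9 tested, all had positive values with TMM scaling and a median of 0.34. Of all 18422 genes tested, 9278 had positive values. Only Cct6a of these is a TRiC subunit, beside prefoldin subunits and cofactors. The set is therefore unlike the 7 TRiC genes among the members, whose median was 0.02. Vbp1, a prefoldin subunit, had 40.1 and 24.7 CPM in the HFD and 9.65 and 16.0 CPM in the CD mice (log2 fold change 1.34, SE 0.32, adjusted p = 0.0525), and Txndc9, a TRiC cofactor, had a log2 fold change of 0.38 (adjusted p = 0.118). The 18 other J protein genes had a median of 0.16. Bag6 and Bag2 had the smallest p of the 8 exchange and regulatory genes of HSP70 (log2 fold changes -0.58 and 0.58, adjusted p = 0.0703 and 0.138). Of the mitochondrial co-chaperones Hscb had 0.66 (adjusted p = 0.0892), and of the small heat shock proteins Hspb6 had 0.61 (adjusted p = 0.117) and Hspb11 0.67 (adjusted p = 0.163).

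Genes that respond to cell handling and to other protein stress were examined beside the chaperones. Of 47 tested, 7 were called lower and 0 higher, beside 7.91% and 2.61% of all genes, and 5 of the 7 were among the 19 immediate early genes. Nr4a3 and Nr4a2, nuclear receptors induced within minutes of stimulation, fell 33.9-fold and 14.2-fold (adjusted p = 0.00515 and 0.00557), and Egr3 fell 4.85-fold (adjusted p = 0.0232). The immediate early genes did not all go this way. Log2 fold changes were negative in 15 of the 19 and positive in 4, beside 9144 and 9278 of all genes tested. Fos had 2822 and 2724 CPM in the HFD and 2053 and 1663 CPM in the CD mice (log2 fold change 0.58, edgeR adjusted p = 0.0901). The summed level of the immediate early genes was 12500 and 13300 CPM in the HFD and 17000 and 12300 CPM in the CD mice, so CD mouse 2 was not above the HFD mice in the sum. In the endoplasmic reticulum stress list Dnajb9 fell 1.70-fold (adjusted p = 0.0367), and Hspa5, the HSP70 of that compartment, had 1356 and 1433 CPM in the HFD and 2195 and 1975 CPM in the CD mice (log2 fold change -0.58, adjusted p = 0.0714). Among the partners of proteotoxic stress Txnrd1 fell 1.90-fold (adjusted p = 0.0406). Of these 5 named calls, those of Egr3, Dnajb9 and Txnrd1 ended without HFD mouse 1 (adjusted p = 0.0873, 0.115 and 0.217) and without HFD mouse 2 (0.115, 0.203 and 0.121).

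Hmox1 shares the order of the HFD mice seen in the HSP70 pair. It had 190.4 and 517.9 CPM in the HFD and 132.5 and 184.8 CPM in the CD mice. HFD mouse 1 was the lower of its pair but stood just above the controls, where in Hspa1a and Hspa1b it was the lowest of the 4. Hmox1 had a log2 fold change of 1.16 (adjusted p = 0.146), and without HFD mouse 1 it was called higher (1.73, adjusted p = 0.0196).

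Markers of several other cell types differed between the diets, and these values stand beside every chaperone result above. Other lists held few calls: 0 of 5 endothelial markers tested, 1 higher and 1 lower of 11 T and NK cell markers, and 1 lower of 4 B and plasma cell markers. Fibroblast and pericyte markers were called higher in 7 of 10 genes, with a summed level of 2080 and 2080 CPM in the HFD and 1040 and 779 CPM in the CD mice. Tumour epithelial markers were called lower in 7 of 8 tested, with 39.7 and 46.3 against 160 and 121 CPM. Much of that sum was Cdh1, the tested gene not called (edgeR adjusted p = 0.0975). Cdh1 alone had 38.5 and 45.2 CPM in the HFD and 144.4 and 57.0 CPM in the CD mice. Neutrophil markers were called lower in 7 of 11 tested (193 and 171 against 402 and 197 CPM), with Ly6g at 0 in both HFD libraries. Most of that sum was Csf3r (80.8 and 83.0 against 138.3 and 71.7 CPM) and Mmp9 (104.5 and 81.5 against 123.6 and 73.5 CPM), which were not called. S100a9, the most abundant neutrophil marker called, had 2.75 and 2.19 against 55.4 and 24.8 CPM. Dendritic cell markers were called lower in 2 of 9 (25.1 and 30.9 against 103 and 60.2 CPM). Each of these sums was below that of the macrophage markers in every library. Their part in the chaperone values was not tested. The fibroblast sum was carried by Col3a1, with 1690 and 1540 CPM in HFD mice 1 and 2. Col1a1 and Col1a2 were higher in HFD mouse 2 than in HFD mouse 1, with 97.8 and 212.9 CPM and with 27.9 and 63.9 CPM. So were Rgs5 (8.12 and 15.8 CPM) and Lum (0.668 and 1.59 CPM), as Hspa1a and Hspa1b were. In the fibroblast and pericyte list only Dcn (107.4 and 70.15 CPM) and Col3a1 went the other way. The summed level of that list was 2080 CPM in both HFD mice.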

How the data were processed

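The authors deposited raw counts per gene for 4 libraries of polyA RNA, made with a stranded kit per the labels' protocols. The submitters' processing notes name DESeq2 1.24.0, BWA 0.7.12, cutadapt 1.15 and FastQC 0.11.5 and the builds GRCm38 and mm10. They give no roles, and the sources used here do not name the counting program or its strand setting. Library totals were 34148682 to 37159552 counts. Symbols, positions and transcripts came from GENCODE mouse release 21 (GRCm38), which matched 53274 identifiers. The other 105 held at most 0.0129% of a library's counts.

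Genes passing filterByExpr (minimum count 10, minimum total 15) entered edgeR 4.0.16 (R 4.3.3) with TMM scaling, robust glmQLFit, glmQLFTest with diet as the only term, and Benjamini-Hochberg adjustment over all genes tested. The SE (standard error) of a fold was taken on the log2 scale as its absolute value over the root of F. With 2 mice per diet, p-values rest on 2 residual degrees of freedom shared across genes. The labels' mouse numbers do not pair animals across diets. DESeq2 1.42.0 was an alternative, as were other scalings, filters and fits without 1 library. Near-identical transcripts were found with blastn 2.17.0. The script was tested on simulated data.

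The members and gene lists were chosen with earlier results of these data known. By rule, the member of smallest p in each role, Hspa1a and Hspa1b are given in full, with up to 2 genes of smallest p per wider list and 3 per handling or stress list. Other members' values, Hmox1, Fos and the single macrophage markers given were chosen after their values were seen. One gene that the rule names is not reported here.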

Additional observations from a re-analysis of the deposited data

How the results depend on the processing

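Of 380 recomputed log2 fold changes of members, 362 kept their direction and 16 newly passed the threshold, and 25 of the 31 members kept their direction in every alternative run. The count of members called, 0, became 1 with upper-quartile factors, 4 with no filter on low counts, 2 with DESeq2 and 3 under a crossed pairing added after seeing the data, and fits without 1 library gave 0 to 3. The count over all genes, 1937, became 3783 with no filter, 475 with the stricter filter (5 CPM in 2 libraries) and 2954 with DESeq2, and 371 to 4468 without 1 library. The further chaperone genes called, 3, became 7 with no filter, 7 with DESeq2 and 5 under the crossed pairing (1 to 8 without 1 library), and the handling and stress genes, 7, became 11 and 15 with no filter and DESeq2 (3 to 16 without 1 library). With upper-quartile factors, where 1 member was called, 11.1% of all genes were called. Under the crossed pairing, where 3 members were called, 2455 genes were called in all. The cause of these shifts was not tested.

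Of the 6 members that changed sign, Ahsa1 was at 0.03 by total counts and 0.00 with no filter (-0.06 to 0.01 without 1 library), Stip1 at -0.01 with the stricter filter (-0.06 to 0.14), Cct4 at -0.01 with upper-quartile factors and -0.03 with the stricter filter (-0.04 to 0.10), Cct5 at 0.05 and 0.02 by total counts and with no filter (-0.14 to 0.10), Cct7 at 0.04 and 0.01 (-0.11 to 0.06), and Hspb1 at -0.73 to 1.99 without 1 library. The stricter filter dropped Hspb1. Total counts moved the median of all genes to 0.074.

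The mouse numbers are shared between the diets, but same-numbered mice did not deviate together (correlation -0.189 over 10312 genes). With the replicate block 0 members, 2048 genes, 3 further chaperone genes and 9 handling and stress genes were called. Of the further chaperone genes Ppid lost its call under the block and Vbp1 gained one, and of the handling and stress genes Egr2 and Hmox1 gained one. Under the crossed pairing 2455 genes were called. Depth limits Hspb1, with its few counts, more than any other member.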
